A study of Mus musculus with 6 samples.

Results

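Tandem CpGs are CpG dinucleotides whose starts lie only 2 or 3 bp apart. At 2 bp they read CGCG with nothing between them, and at 3 bp they read CGNCG with 1 base between them. Neighbouring CpG rows with these distances on the autosomes were taken where both sites had 10 to 19 CpG rows within 500 bp on each side, themselves included. Both sites also needed 5 or more reads in all 3 cell lines, and at most 80 in the SETD2 knockout, 40 with DNMT3B1 and 45 with DNMT3A2. The SETD2 knockout lists no site under 10 reads, so its minimum was in effect 10. This gave 75729 pairs, 35299 at 2 bp and 40430 at 3 bp. They held 148138 of the 20782144 CpG sites listed, and 3320 sites were counted in more than 1 pair. The rule used positions and read numbers only, and no methylation value. Before the read limits 216725 pairs had this density, so 34.9% were kept, 29.7% at 2 bp and 41.4% at 3 bp. Sites without any CpG row within 50 bp, called lone sites, served for comparison at the same density and read limits. There were 729705 of them, 38.3% of those at this density.

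The reads come from whole-genome bisulfite sequencing, which reads an unmethylated cytosine as T, of 3 mouse embryonic stem cell lines. All were triple-null for DNMT1, DNMT3A and DNMT3B. The first line expressed DNMT3B1 and also carried a knockout of SETD2, the second expressed DNMT3B1 with SETD2 present, and the third expressed DNMT3A2. The labels give each line 2 runs and name no separate cultures. Each line therefore counts as 1 library, and lines were not compared by p-values. What drives each enzyme, how much of it the cells hold and whether a line is 1 clone is not given in the sources used here. Cells grew on feeder cells or gelatine, and DNA of feeder cells cannot be told apart in these counts.

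DNMT1 copies methylation to the new strand after replication, and the DNMT3 enzymes add it to unmethylated CpGs. DNMT3A and DNMT3B are related enzymes whose catalytic domains contact the bases next to the CpG, and enzymes of this family are known to differ in the bases they favour there. DNMT3A2 and DNMT3B1 are isoforms found in embryonic stem cells, and both can act on neighbouring CpGs along 1 stretch of DNA. SETD2 sets the H3K36me3 mark of transcribed gene bodies, which the PWWP domain of DNMT3B can bind. Without DNMT1, methylation lost at replication has to be set anew by the enzyme present.

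The letters around a CpG matter for what follows, so examples are printed. RefSeq promoter windows of build GRCm38.p6 were placed on the deposited mm9 rows by the distances between their CpGs, not by coordinates. Of 18541 windows with at least 6 CpGs, 16541 had a set of distances found at 1 place only and on the right chromosome, and 2 were found once on another chromosome. They hold 238 of the tandem pairs, 115 at 2 bp and 123 at 3 bp, and the letters were CGCG or CGNCG at each of them. The motif CGCG, which reads the same on both strands, is in 38.0% of all 32851 windows, and CGNCG is in 34.6%. The sequences below are the 4 pairs of each spacing with the most methylated reads over the 3 lines, among 39 and 41 such pairs upstream of a gene start with 10 or more reads at both sites in each line. Being chosen by methylated reads, their levels are a description. Each is written 5′ to 3′ on the strand of the gene, with the 2 CpGs of the pair in capitals. At Prss23 a further CpG, 3 bp after the second, is left in lower case.

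Gm52788, chr5:124131165-124131204, plus strand: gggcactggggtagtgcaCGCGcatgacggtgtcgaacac
Trim80, chr11:115440332-115440371, plus strand: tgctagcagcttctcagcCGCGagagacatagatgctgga
Gm4872, chr6:53220971-53221010, plus strand: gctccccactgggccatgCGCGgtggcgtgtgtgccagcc
1700110C19Rik, chr17:10324533-10324572, plus strand: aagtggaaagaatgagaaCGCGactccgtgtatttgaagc
Prss23, chr7:89527295-89527335, minus strand: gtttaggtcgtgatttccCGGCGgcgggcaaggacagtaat
Gm51601, chr8:123834071-123834111, minus strand: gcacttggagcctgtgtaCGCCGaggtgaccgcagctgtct
Msl1, chr11:98798404-98798444, plus strand: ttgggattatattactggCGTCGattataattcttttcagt
8430426J06Rik, chr15:81251937-81251977, minus strand: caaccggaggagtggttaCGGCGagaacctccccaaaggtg

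At the CGCG of Gm52788, 7 of 21 and 0 of 17 reads were methylated at the first and second CpG in the SETD2 knockout, 3 of 14 and 0 of 14 with DNMT3B1, and 6 of 13 and 4 of 12 with DNMT3A2. At Trim80 the counts were 8 of 37 and 3 of 37 in the SETD2 knockout, 0 of 31 and 0 of 32 with DNMT3B1, and 4 of 18 and 0 of 19 with DNMT3A2. At 1700110C19Rik they were 3 of 39 and 0 of 33, 0 of 15 and 0 of 15, and 1 of 12 and 8 of 12 in the same order of lines. At Gm4872 they were 8 of 28 and 0 of 28, 1 of 15 and 0 of 11, and 4 of 15 and 2 of 15. In these 4 CGCG pairs the DNMT3B1 line was the lowest of the 3 lines, and the 2 sites of a pair could differ.

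The 3 bp pair upstream of Prss23, a secreted serine protease, had 6 of 11 and 0 of 15 methylated reads in the SETD2 knockout, 0 of 16 and 0 of 15 with DNMT3B1, and 9 of 23 and 8 of 22 with DNMT3A2. The CGTCG upstream of Msl1, a scaffold of the MSL histone acetyltransferase complex, had 0 of 20 and 11 of 18 in the SETD2 knockout, 4 of 21 and 0 of 19 with DNMT3B1, and 5 of 21 and 0 of 21 with DNMT3A2. So the knockout reads were methylated at the second CpG and the other reads at the first. At 8430426J06Rik the counts were 10 of 15 and 0 of 12 in the SETD2 knockout, 5 of 13 and 0 of 13 with DNMT3B1, and 1 of 22 and 0 of 22 with DNMT3A2, which was the lowest line there. At Gm51601 they were 7 of 26 and 5 of 25, 1 of 18 and 0 of 18, and 7 of 14 and 2 of 14. Single pairs thus scattered widely, and the comparisons that follow pool many of them.

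The CGCG pairs were less methylated than lone CpGs in both lines with DNMT3B1 and more methylated in the line with DNMT3A2. A level is the share of methylated reads among the summed reads of a class of sites, and the 95% intervals of ratios come from the spread over the 19 autosomes. They describe variation along the genome of 1 library and not between cultures. In the SETD2 knockout 65056 of 1331497 reads were methylated at sites of 2 bp pairs, or 4.89% (exact 95% binomial interval 4.85% to 4.92%), and 6.86% (6.85% to 6.88%) at lone sites, a ratio of 0.712 (0.700 to 0.724). With DNMT3B1 the levels were 2.18% (2.15% to 2.21%) and 3.23% (3.22% to 3.24%), a ratio of 0.676 (0.658 to 0.694). With DNMT3A2 they were 9.95% (9.88% to 10.01%) and 8.62% (8.61% to 8.64%), a ratio of 1.15 (1.13 to 1.17). The ratio was below 1 on 19 of 19 autosomes in both DNMT3B1 lines and above 1 on 19 of 19 with DNMT3A2. All sites at this density within the read limits had 6.93%, 3.31% and 9.17% in the same order of lines, above the lone level in each. With no CpG row allowed within 100 bp of a lone site, the 2 bp ratios were 0.678, 0.630 and 1.07 (1.05 to 1.08). The size of the DNMT3A2 excess thus depended on how lone sites were defined.

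Pairs 3 bp apart stood much closer to lone sites. Their level was 6.79% in the SETD2 knockout against 6.86% at lone sites, a ratio of 0.989 (0.980 to 0.998) with 11 of 19 autosomes below 1. With DNMT3B1 it was 3.53% against 3.23%, a ratio of 1.09 (1.07 to 1.11), and with DNMT3A2 9.28% against 8.62%, a ratio of 1.08 (1.06 to 1.09). On every autosome the 3 bp pairs were above lone sites in the DNMT3B1 and DNMT3A2 lines. The small excess depended on how lone sites were defined. With none allowed within 100 bp, the ratio was 1.02 with DNMT3B1, no longer called, and 0.997 (0.984 to 1.01) with DNMT3A2. The small deficit of the SETD2 knockout lost its call or turned in 9 of 15 other settings.

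**Figure D1:**
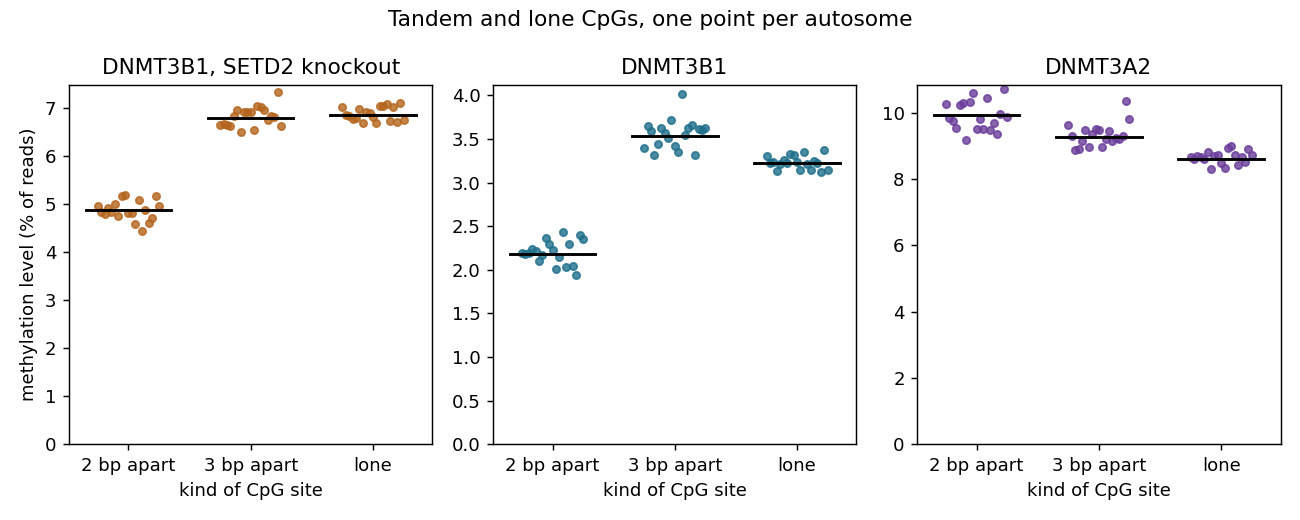
Methylation level in percent of reads at sites of pairs 2 bp apart, of pairs 3 bp apart and at lone sites, with 1 panel per line and 1 point per autosome. Black lines are levels pooled over autosomes, and each panel has its own vertical scale from 0; the points of the 2 bp pairs lie below those of lone sites in both DNMT3B1 lines (4.89% against 6.86%, and 2.18% against 3.23%) and are shifted upwards with DNMT3A2 (9.95% against 8.62%).

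Set directly against each other, 2 bp pairs had 0.718 times the level of 3 bp pairs in the SETD2 knockout (0.705 to 0.731) and 0.615 times with DNMT3B1 (0.595 to 0.637). With DNMT3A2 they had 1.07 times the level (1.06 to 1.09). Sites that belonged to pairs of both spacings, 922 in all, were left out of these ratios. The 2 bp pairs of the SETD2 knockout ranged from 4.44% on autosome 14 to 5.19% on autosome 9, and its 3 bp pairs from 6.50% to 7.34%. With DNMT3B1 the autosomes ranged from 1.94% to 2.43% at 2 bp and from 3.31% to 4.02% at 3 bp, so the ranges did not overlap in either line. With DNMT3A2 they ranged from 9.19% to 10.7% at 2 bp and from 8.87% to 10.4% at 3 bp and overlapped.

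Between lines, the gap between the DNMT3B1 and DNMT3A2 levels was wider at 2 bp pairs than at lone sites. The DNMT3B1 level was 0.219 times the DNMT3A2 level at 2 bp pairs and 0.374 times at lone sites. On the log2 scale this is a difference of -0.77 (-0.82 to -0.72), with the same sign on 19 of 19 autosomes. At 3 bp pairs the fold was 0.380, a log2 difference from lone sites of 0.02 (-0.01 to 0.06), with 13 autosomes above 0 and 6 below. The SETD2 knockout had 2.24 times the level of the DNMT3B1 line at 2 bp pairs, 1.92 times at 3 bp pairs and 2.13 times at lone sites. The log2 differences from lone sites were 0.07 (0.04 to 0.11) at 2 bp and -0.15 (-0.17 to -0.12) at 3 bp. At 2 bp the difference between the SETD2 knockout and DNMT3B1 is small beside that between the enzymes, and at 3 bp it is the larger one. With 1 library per line these values compare libraries.

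The first and second site of a pair, in order of forward-strand position, had nearly the same level. Over all pairs it was 5.90% at the first and 5.90% at the second in the SETD2 knockout, a ratio of 1.00 (0.983 to 1.02). With DNMT3B1 it was 2.93% and 2.87%, a ratio of 1.02 (1.004 to 1.04), with 15 of 19 autosomes above 1. With DNMT3A2 it was 9.65% and 9.55%, a ratio of 1.01 (0.997 to 1.02). For 2 bp pairs alone the ratios were 1.00 (0.978 to 1.03), 1.03 (0.998 to 1.06) and 1.02 (0.997 to 1.04), in the order SETD2 knockout, DNMT3B1, DNMT3A2, and for 3 bp pairs 0.998, 1.02 and 1.00 with intervals that included 1. The DNMT3B1 difference lost its call or turned in 7 of 10 other settings and turned to 0.928 (0.876 to 0.984) at a density of 5 to 9. Rows join both strands of a CpG, so each pair has a mirror image in the genome and the order carries no strand.

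Among sites within the read limits, mean depth hardly differed between the kinds of site. The limits themselves kept 29.7% of 2 bp pairs and 41.4% of 3 bp pairs, so depth before them was not alike. Mean coverage at 2 bp, 3 bp and lone sites was 19.2, 19.5 and 18.8 reads in the SETD2 knockout, 12.8, 13.0 and 12.6 with DNMT3B1, and 13.2, 13.4 and 13.1 with DNMT3A2. All CpG sites together carried 200947834, 188661576 and 200364080 reads in the same order of lines, and the knockout values list no site under 10 reads. Cytosines that escaped conversion are part of every level. At 60 or more CpG rows within 500 bp, where methylation was lowest, levels were 0.463%, 0.153% and 0.210%, and with these subtracted the ratios of 2 bp and 3 bp pairs over lone sites, of 2 bp over 3 bp pairs and of first over second sites of all pairs kept their calls.

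The pairs mostly lay in small groups of CpGs, and the median density was 14 for both spacings and 12 for lone sites. A median of 4 CpG rows, the site included, lay within 50 bp of a 2 bp site and 3 within 50 bp of a 3 bp site, while the number of rows 51 to 500 bp away had a median of 11 for both spacings and for lone sites. Only 14099 pairs (18.6%) were isolated, with no further CpG within 50 bp of either site, 6433 at 2 bp and 7666 at 3 bp. In isolated 2 bp pairs the level over lone sites was 0.718 (0.691 to 0.746) in the SETD2 knockout, 0.670 (0.634 to 0.707) with DNMT3B1 and 1.09 (1.05 to 1.12) with DNMT3A2. In isolated 3 bp pairs it was 0.986 (0.959 to 1.01), 1.07 (1.03 to 1.11) and 1.04 (1.01 to 1.07).

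Among isolated pairs of all distances up to 50 bp, 2 bp stood at the bottom in both DNMT3B1 lines. The 2 bp level was 4.93% in the SETD2 knockout, against 6.58% to 7.66% over the 47 distances from 4 to 50 bp. With DNMT3B1 it was 2.16%, against 3.06% to 3.71%. With DNMT3A2 it was 9.39% and lay inside the range of 8.47% to 11.5%, whose highest value was at 4 bp. The median over those distances was 9.13% with DNMT3A2, also above its lone level of 8.62%. The 3 bp level was 6.77%, 3.44% and 8.98% in the SETD2 knockout, DNMT3B1 and DNMT3A2 lines, inside the range of the other distances in each.

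**Figure D2:**
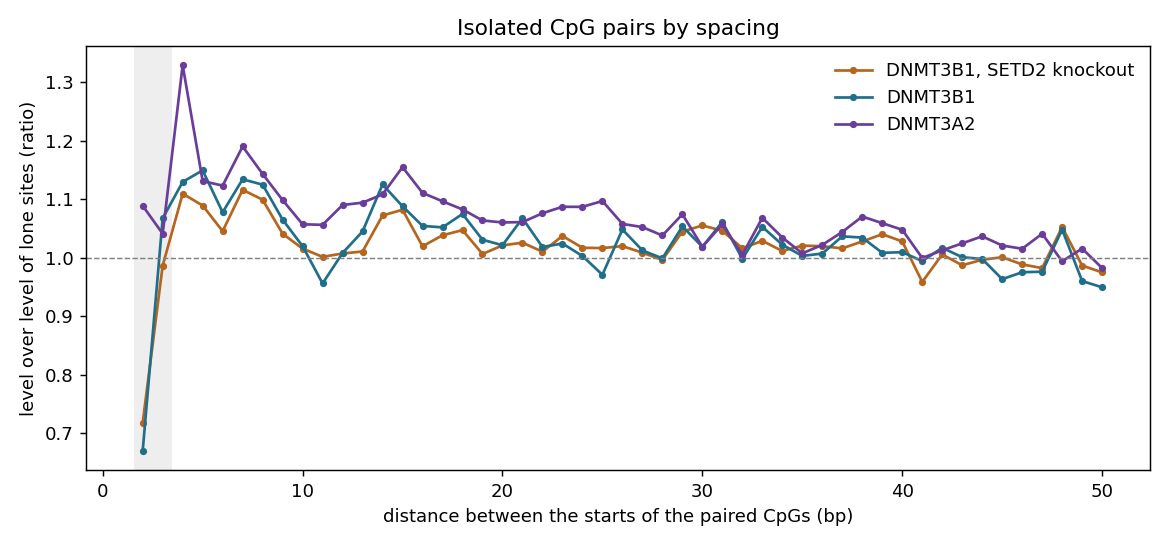
Level of isolated CpG pairs divided by the level of lone sites in the same line (vertical axis, ratio) against the distance between the starts of the paired CpGs in bp (horizontal axis), with the shaded band marking 2 and 3 bp. At 2 bp the SETD2 knockout lies at 0.718 and DNMT3B1 at 0.670, below their other distances. DNMT3A2 lies at 1.09, inside the range of its other distances, from 0.982 at 50 bp to 1.33 at 4 bp.

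The contrast with lone sites ran through lower densities and changed for DNMT3A2 at higher ones. At 5 to 9 CpG rows, 8663 pairs at 2 bp had 0.753, 0.726 and 1.24 times the lone level in the SETD2 knockout, DNMT3B1 and DNMT3A2 lines. At 20 to 39 rows, 27058 pairs had 0.614 (0.597 to 0.631), 0.563 (0.537 to 0.590) and 0.890 (0.866 to 0.913) times the lone level, so DNMT3A2 too was below 1 there, on 19 of 19 autosomes. The DNMT3B1 ratio stayed below the DNMT3A2 ratio in each of these classes. The 3 bp pairs had 1.02, 1.11 and 1.10 times the lone level at 5 to 9 rows and 0.911, 0.990 and 0.953 times at 20 to 39 rows, in the same order of lines. From 40 rows upwards 2 bp levels were at most 0.745% and lone sites few (4385 at 40 to 59 rows and 718 above), and the order of the lines changed. At 40 to 59 rows the ratios were 0.479 (0.426 to 0.539), 0.575 (0.449 to 0.736) and 0.645 (0.551 to 0.756). At 60 or more they were 0.613 (0.490 to 0.766), 0.669 (0.260 to 1.72) and 0.324 (0.235 to 0.445), with DNMT3A2 the lowest. In both classes the interval of DNMT3B1 overlapped those of the other lines, so its place in the order was not resolved.

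Levels just inside and just outside the density limits differed in either direction. Just inside them, at 10 rows, 2 bp pairs had 5.36%, 2.25% and 10.4% in the SETD2 knockout, DNMT3B1 and DNMT3A2 lines, and just outside, at 9 rows, 5.16%, 2.32% and 9.79%. At the upper limit they had 4.31%, 2.03% and 8.98% at 19 rows and 4.49%, 2.04% and 8.98% at 20 rows. The 3 bp pairs had 7.20%, 3.67% and 9.46% at 10 rows and 6.88%, 3.66% and 8.49% at 9, and 6.00%, 3.21% and 8.40% at 19 rows and 6.05%, 3.33% and 8.69% at 20.

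**Figure D3:**
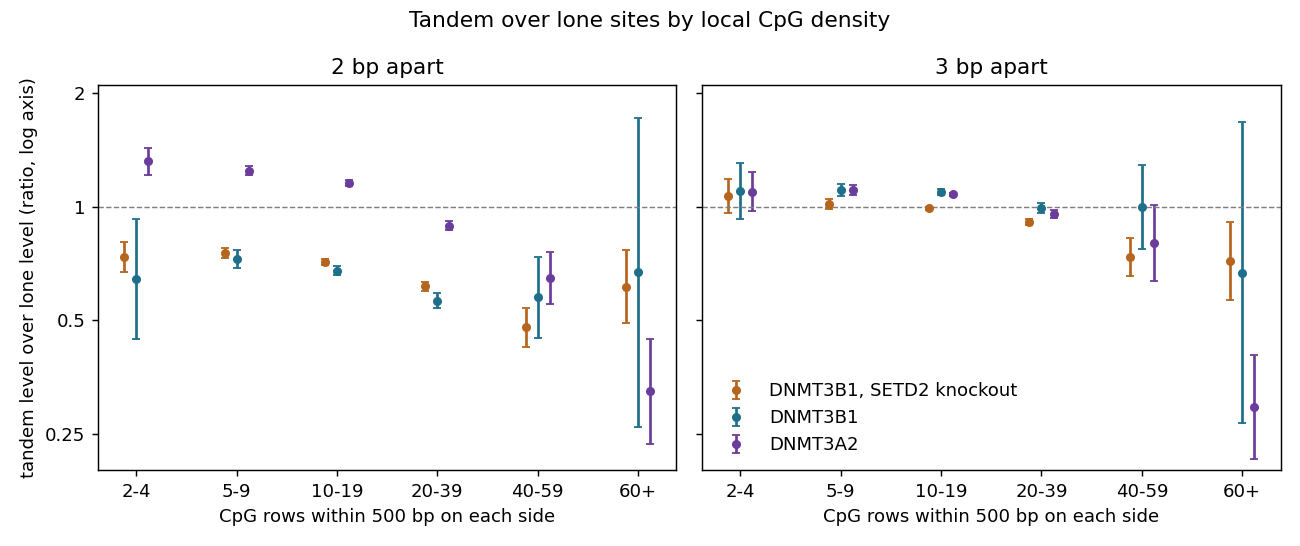
Level of tandem sites over the level of lone sites (vertical log axis, ratio) by the number of CpG rows within 500 bp on each side (horizontal axis), for pairs 2 bp apart (left) and 3 bp apart (right). Points are the 3 lines and bars are 95% intervals over the 19 autosomes; at 2 bp and 10 to 19 rows the SETD2 knockout (0.712) and DNMT3B1 (0.676) lie below 1 and DNMT3A2 (1.15) above it, and at 20 to 39 rows all 3 lie below 1.

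Highly methylated sites followed the levels. Sites with 50% or more of their reads methylated made up 0.551% of 2 bp sites, 1.11% of 3 bp sites and 1.23% of lone sites in the SETD2 knockout, beside 1.23% of all 3133441 autosomal sites at this density within the read limits. With DNMT3B1 the shares were 0.385%, 0.782% and 0.679%, beside 0.692% of all sites. With DNMT3A2 they were 3.12%, 2.53% and 2.35%, beside 2.6% of all sites. Sites without any methylated read were the most frequent class, with 66.3%, 86.6% and 51.8% of 2 bp sites in the SETD2 knockout, DNMT3B1 and DNMT3A2 lines. The shares were 58.3%, 79.8% and 53.2% of 3 bp sites and 58.7%, 81.6% and 56.5% of lone sites, in the same order of lines. Most sites of every kind thus had no methylated read, and all these shares also depend on depth.

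In runs of exactly 3 CpGs without a gap, the middle site was less methylated than the outer sites of the same runs with DNMT3B1 and with DNMT3A2. Such runs (CGCGCG) were measured at all 3 sites in 783 places. In the SETD2 knockout the first, middle and last site had levels of 5.92%, 4.71% and 5.94%. With DNMT3B1 they had 2.86%, 1.56% and 2.68%, and with DNMT3A2 14.4%, 10.4% and 14.3%. The middle site over both outer sites gave 0.794 (0.624 to 1.01) in the SETD2 knockout, 0.564 (0.447 to 0.711) with DNMT3B1 and 0.722 (0.684 to 0.763) with DNMT3A2, with 15, 17 and 17 of 19 autosomes below 1. Only in the SETD2 knockout did the interval include 1. The outer sites of these runs were more methylated than the sites of the 32913 runs of exactly 2, which had 4.84%, 2.17% and 9.73%, and this difference was not tested.

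Against all other tandem sites rather than their own run, inner sites were not the lowest class in every line. The 1444 sites with a neighbour 2 bp away on both sides, in runs of any length, had 5.11% in the SETD2 knockout (exact 95% binomial interval 4.84% to 5.38%), 1.93% with DNMT3B1 (1.73% to 2.15%) and 12.5% with DNMT3A2 (12.1% to 13.0%). Their ratios over lone sites were 0.744 (0.654 to 0.846), 0.598 (0.505 to 0.707) and 1.45 (1.35 to 1.56). Sites with such a neighbour on 1 side only had 4.88%, 2.19% and 9.91%, and ratios over lone sites of 0.712, 0.678 and 1.15. With DNMT3A2 the autosome interval of the class with neighbours on both sides lay above the 1-side ratio. In the SETD2 knockout and with DNMT3B1 the interval of that class held the 1-side ratio, so the 2 classes were not told apart. Sites with a neighbour 3 bp away on both sides, 1306 in all, had 5.71% in the SETD2 knockout, 3.12% with DNMT3B1 and 8.36% with DNMT3A2. Sites with a neighbour at 2 bp on 1 side and at 3 bp on the other, 1035 in all, had 4.77%, 2.14% and 8.72%, so that the DNMT3B1 lines were as low there as at sites with a 2 bp neighbour alone (4.88% and 2.19%).

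In CGCG each CpG has a cytosine directly after it on at least 1 strand, and the middle CpG of CGCGCG has one on both. The placed promoter windows allowed the same feature to be read at CpGs that had no other CpG 2 or 3 bp away. This was looked at after the levels of the pairs had been seen. Of such sites at density 10 to 19, 3447 had no cytosine directly after the CpG on either strand, 2038 had one on 1 strand and 291 on both. In the SETD2 knockout their levels were 7.15%, 3.68% and 3.06%, and with DNMT3B1 3.04%, 1.28% and 0.755%, falling with the number of strands. With DNMT3A2 they were 6.40%, 7.37% and 9.20% and went the other way. In runs of 3, though, the DNMT3A2 middle site (10.4%) lay below the outer ones (14.4% and 14.3%), opposite to that rise. The reason was not tested.

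Relative to sites with no such cytosine, those with one on 1 strand had 0.515 times the level in the SETD2 knockout (0.460 to 0.578), 0.420 times with DNMT3B1 (0.329 to 0.537) and 1.15 times with DNMT3A2 (1.01 to 1.31). With one on both strands the ratios were 0.429 (0.317 to 0.579), 0.248 (0.118 to 0.525) and 1.44 (1.14 to 1.82), over 18 autosomes. The 228 sites of 2 bp pairs in the same windows had 3.90%, 1.71% and 6.98% in the SETD2 knockout, DNMT3B1 and DNMT3A2 lines. In both DNMT3B1 lines this is below the level of the sites without such a cytosine, with exact 95% binomial intervals of 3.36% to 4.50% and 1.29% to 2.24%. The interval of the SETD2 knockout includes the level of the sites with a cytosine on 1 strand (3.68%). That of DNMT3B1 lies just above the level of those sites (1.28%) and overlaps their interval (1.15% to 1.42%). Over sites without such a cytosine, the 2 bp sites had ratios of 0.546 (0.427 to 0.698), 0.564 (0.324 to 0.981) and 1.09 (0.830 to 1.43). Each of these intervals holds the 1-strand ratio of its line, and that of DNMT3A2 includes 1. The 241 sites of 3 bp pairs in these windows had 5.37%, 2.31% and 6.38%. How much of the 2 bp contrast goes with the base after the CpG was not tested outside promoters.

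**Figure D4:**
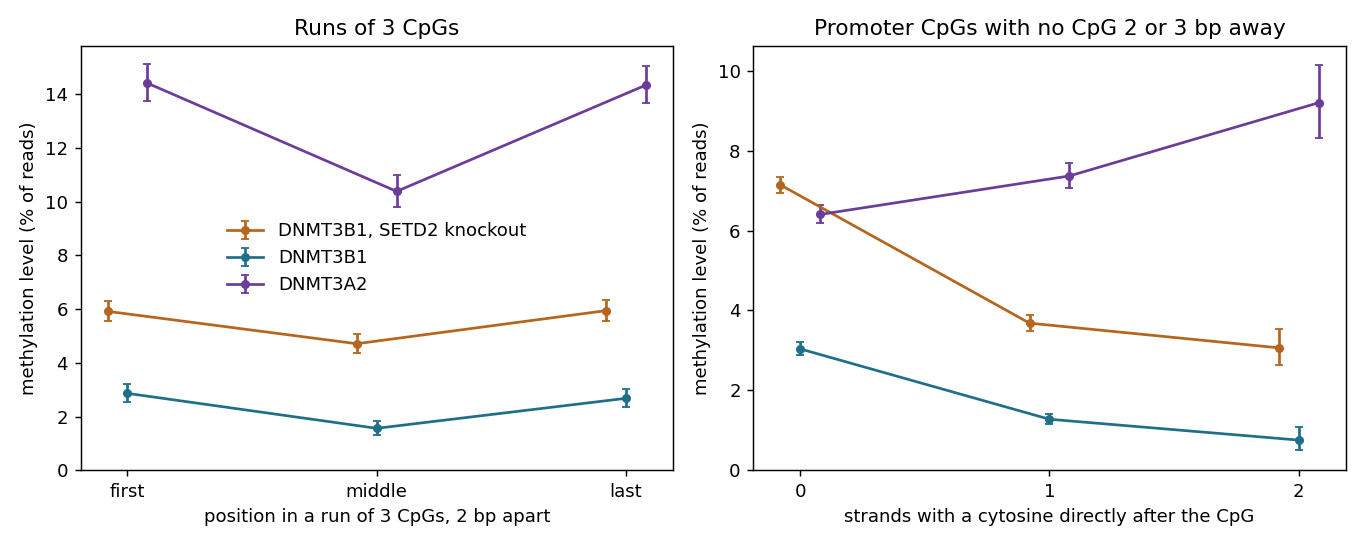
Methylation level in percent of reads at the first, middle and last site of 783 runs of 3 CpGs 2 bp apart (left), and at promoter CpGs with no CpG 2 or 3 bp away by the number of strands with a cytosine directly after the CpG (right). Bars are exact 95% binomial intervals; the middle site is the lowest in each line, and from 0 to 2 strands the level goes down in the SETD2 knockout (7.15% to 3.06%) and with DNMT3B1 (3.04% to 0.755%) and up with DNMT3A2 (6.40% to 9.20%).

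The 1 base between the CpGs of a 3 bp pair gave the same contrast within pairs. In 76 promoter pairs the middle base was a C on one strand, so that 1 CpG had this cytosine directly after it and its partner had it directly before (CGCCG, as upstream of Gm51601). The CpG with the cytosine after it was methylated in 64 of 1583 reads in the SETD2 knockout (4.04%) and its partner in 113 of 1580 (7.15%). With DNMT3B1 the counts were 10 of 973 (1.03%) and 36 of 1010 (3.56%), and with DNMT3A2 98 of 1165 (8.41%) and 71 of 1170 (6.07%). The ratios were 0.565 (0.324 to 0.986), 0.288 (0.144 to 0.578) and 1.39 (0.826 to 2.33), so the interval included 1 only with DNMT3A2. Over 460 such pairs at densities from 5 to 39 they were 0.440 (0.306 to 0.633), 0.389 (0.181 to 0.833) and 1.28 (0.927 to 1.76). The CpG with the cytosine after it was thus the lower site of these pairs in both DNMT3B1 lines. The other 47 promoter pairs at density 10 to 19, with A or T between the CpGs, had 5.15%, 2.18% and 5.78% in the SETD2 knockout, DNMT3B1 and DNMT3A2 lines. At densities from 5 to 39 such pairs (222) had 1.87%, 0.982% and 3.09%, where the CpG with the cytosine after it had 1.36%, 0.680% and 3.60% and its partner 3.10%, 1.75% and 2.82%. The A or T pairs thus lay between the sites of the other pairs in both DNMT3B1 lines, although neither of their CpGs has a middle cytosine after it.

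A read of usual length covers both sites of a pair, and equal coverage at both sites was seen in 47.0%, 69.0% and 65.7% of 2 bp pairs in the SETD2 knockout, DNMT3B1 and DNMT3A2 lines. In such pairs the absolute difference of methylated reads, summed and divided by all methylated reads, gives the least share of methylated calls without a partner on the other site. For 2 bp pairs that share was at least 65.1% in the SETD2 knockout, 80.7% with DNMT3B1 and 46.3% with DNMT3A2. For 3 bp pairs it was at least 63.2%, 77.2% and 49.4%, and for neighbouring rows 4 to 10 bp apart 55.2%, 70.5% and 45.1%. Neighbouring rows 11 to 50 bp apart had 61.9%, 74.4% and 53.1%. The share depends on level and depth, so the lines cannot be ranked by it. In all 3 lines many methylated calls had no counterpart at the other site of a tandem, and the same held for neighbours further apart. Equal numbers of reads need not be the same reads, so the counts do not show single molecules.

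Both sites carried a methylated read in 14.1%, 3.01% and 30.7% of 2 bp pairs with equal coverage in the SETD2 knockout, DNMT3B1 and DNMT3A2 lines, and 1 site alone did in 35.2%, 19.5% and 32.0%. In the same order of lines, both did in 18.9%, 5.62% and 28.7% of such pairs 3 bp apart. Neighbours 4 to 10 bp apart had 23.3%, 6.87% and 31.7%, and those 11 to 50 bp apart 20.97%, 5.72% and 26.8%. The 2 bp share with both was lowest in both DNMT3B1 lines and within the range of the others with DNMT3A2. Shares with 1 site alone were 38.98%, 27.5% and 33.6% at 3 bp. They were 35.3%, 24.6% and 31.5% at 4 to 10 bp and 39.6%, 24.96% and 35.9% at 11 to 50 bp. These shares also depend on level and depth. In 2 bp pairs methylation at the first site still went with methylation at the second. In the SETD2 knockout the second site had a level of 6.98% where the first had a methylated read and 3.99% where it had none. With DNMT3B1 the levels were 3.69% and 1.85%, and with DNMT3A2 13.7% and 5.57%, folds of 1.75, 2.00 and 2.46. For 3 bp pairs the folds were 1.50, 1.57 and 2.20, and for neighbours 4 to 10 bp apart 1.99, 2.24 and 2.46. Pairs share a region as well as molecules, and these cannot be told apart in the counts.

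Of 34098 pairs with 10 or more reads at both sites in all lines, the pair level was higher with DNMT3B1 than with DNMT3A2 in 11.9% of the 15731 pairs at 2 bp and in 19.6% of the 18367 pairs at 3 bp. A methylated read at both sites in all 3 lines was seen in 322 pairs. These shares and this count were not set beside other neighbouring rows or lone sites, so they describe tandem pairs alone. The pairs named next are extremes by a fixed rule, so their values are a description, at mm9 positions whose genes were not looked up. The highest minimum over sites and lines was at a 3 bp pair on chromosome 5 (151176236 to 151176240), with 3 of 13 and 3 of 13 reads in the SETD2 knockout, 5 of 13 and 5 of 13 with DNMT3B1, and 4 of 12 and 4 of 12 with DNMT3A2. A CGCG on chromosome 6 (92692235 to 92692238) followed, with 4 of 18 and 4 of 16, 6 of 17 and 5 of 17, and 11 of 28 and 12 of 28 in the same order of lines.

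The pair that most favoured DNMT3B1 over DNMT3A2 was 3 bp apart on chromosome 5 (38263907 to 38263911). It had 4 of 12 and 0 of 12 methylated reads in the SETD2 knockout, 7 of 10 and 7 of 10 with DNMT3B1, and 0 of 27 and 0 of 27 with DNMT3A2. At the CGCG on chromosome 5 from 73586277 to 73586280 DNMT3B1 had 7 of 11 at both sites, while the SETD2 knockout had 0 of 14 at both. Whether equal counts at both sites sit on the same molecules cannot be told from these counts.

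The opposite extreme was a 3 bp pair on chromosome 10 (116413439 to 116413443), with 1 of 10 and 5 of 10 reads in the SETD2 knockout, 0 of 11 and 0 of 12 with DNMT3B1, and 10 of 13 and 11 of 13 with DNMT3A2. The CGCG on chromosome 6 from 145376681 to 145376684 had 2 of 21 at both sites in the SETD2 knockout, 0 of 14 at both with DNMT3B1, and 11 of 18 and 18 of 18 with DNMT3A2. The SETD2 knockout exceeded DNMT3B1 most at a CGCG on chromosome 8 (122583703 to 122583706), with 15 of 18 and 10 of 21 reads against 0 of 10 and 0 of 10, where DNMT3A2 had 7 of 10 and 6 of 10. At a CGCG on chromosome 11 (116659844 to 116659847) it had 4 of 10 and 8 of 10, against 0 of 21 and 0 of 20 with DNMT3B1, and DNMT3A2 had 1 of 27 and 0 of 30. The 2 bp and 3 bp spacings both occurred at each extreme except the last, where both pairs named were CGCG.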

How the data were processed

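Per the file headers, the deposited series table gives the count of all reads and of methylated reads at each CpG for the DNMT3A2 and DNMT3B1 lines, with both strands on 1 row and the runs of a line taken as pooled. The knockout values give the same counts. Their deposited fraction of methylated reads was not used, and the 2 knockout files were identical and used once. Positions are on mm9, which the submitters' processing notes name. How reads were aligned, called and cleared of duplicates is not given in the sources used here, and duplicates counted as reads make binomial intervals, which cover counting error only, too narrow.

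The members and lists were chosen with earlier results of these data known. Ratios of pooled levels have 95% intervals from a ratio estimator over autosomes as blocks (t distribution, 18 degrees of freedom for 19 autosomes), and a ratio was called where its interval excluded 1. The estimator was tested on simulated data. Named pairs had at least 10 reads at both sites in all lines, and were the 3 with the highest minimum level, the 3 highest and 3 lowest by DNMT3B1 minus DNMT3A2 and the 2 highest by SETD2 knockout minus DNMT3B1. Not all of them are printed. Calculations ran in numpy 2.4.6, scipy 1.17.1 and pandas 2.3.3 under Python 3.11.15, with plots by matplotlib 3.10.9. Alternatives changed the read limits, density, definition of lone sites, weighting and background.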

Additional observations from a re-analysis of the deposited data

Results flagged for a closer look

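Several ratios lay on opposite sides of 1 in different lines. With 1 library per line these differences between lines were not tested across cultures. For 2 bp pairs over lone sites, the log2 ratio of DNMT3B1 minus that of DNMT3A2 was -0.77, and that of the SETD2 knockout minus DNMT3A2 was -0.70. For 2 bp over 3 bp pairs the same differences were -0.80 and -0.58. For all tandem sites over lone sites they were -0.30 and -0.37. For 3 bp pairs over lone sites the SETD2 knockout lay below 1 and the other lines above it, with log2 differences of -0.15 to DNMT3B1 and -0.12 to DNMT3A2.

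Methylated reads were also seen at tandem sites outside the comparisons. On the X chromosome 122 sites of 2 bp pairs had 4.38% in the SETD2 knockout, 1.98% with DNMT3B1 and 5.22% with DNMT3A2, and 131 sites of 3 bp pairs had 4.43%, 2.79% and 8.33%. Lone X sites had 6.90%, 3.19% and 6.85%, so the 2 bp level of DNMT3A2 was below its lone level there, opposite to the autosomes, at 62 of 1187 reads (exact 95% interval 4.03% to 6.65%, which overlaps the 6.40% to 7.33% of lone X sites). In pairs over the coverage maximum of some line, 2 bp sites had 2.99%, 1.75% and 6.02% and 3 bp sites 3.999%, 2.09% and 4.46%, in the order SETD2 knockout, DNMT3B1, DNMT3A2. Lone sites over that maximum had 4.66%, 1.84% and 8.17%. The 2 bp level of DNMT3A2 (exact 95% interval 5.59% to 6.46%) was thus below its lone level there too, and that of DNMT3B1 (1.56% to 1.97%) held its lone level.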

How the results depend on the processing

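Over 21 ratios and 15 alternatives, 248 of 291 values kept the main direction and side of their interval. The 2 bp ratios of both DNMT3B1 lines, over lone sites and over 3 bp pairs, kept theirs in every alternative run (0.563 to 0.726 and 0.562 to 0.664 with DNMT3B1, 0.614 to 0.753 and 0.668 to 0.744 in the SETD2 knockout). At density 20 to 39 DNMT3A2 turned to 0.890 at 2 bp, 0.953 at 3 bp and 0.924 at all tandem sites over lone sites and to 0.932 for 2 bp over 3 bp, DNMT3B1 turned to 0.990 at 3 bp and 0.995 for first over second, and the 3 bp log2 ratio of DNMT3B1 minus DNMT3A2 was called at 0.055. At density 5 to 9, 3 bp over lone in the SETD2 knockout was 1.02, first over second with DNMT3B1 0.928, and the 2 bp log2 ratio of the SETD2 knockout minus DNMT3B1 0.052 without a call. The 3 bp ratio of the SETD2 knockout was also 1.00 at equal weight per exact density, and lost its call at 0.989 with a coverage minimum of 10, within 10 kb tiles and without autosomes 6, 8 and 11, at 0.979 without a coverage maximum, 0.986 in isolated pairs and 0.994 with lone sites set at 25 bp. First over second with DNMT3B1 lost its call at 1.03 (minimum 10), 1.01 (no maximum), 1.02 (without these autosomes) and 1.02 (isolated pairs), while DNMT3A2 gained one at 1.02 (minimum 10). In isolated pairs the tandem log2 ratio of the SETD2 knockout minus DNMT3B1 was -0.037 without a call. With lone sites set at 100 bp the 3 bp ratios were 1.02 with DNMT3B1 and 0.997 with DNMT3A2, and the 3 bp log2 ratio between them was called at 0.032, as at 25 bp (0.033) and at equal weight per exact density (0.040). With only pairs of equal reads at both sites, chosen after seeing the data, 7 calls changed: 1.04 for 2 bp over 3 bp and 1.03 (gained) for first over second with DNMT3A2, 1.05 at 3 bp and 1.00 for first over second with DNMT3B1, 0.969 at 3 bp in the SETD2 knockout, and log2 ratios of 0.049 at 2 bp and -0.030 at all tandem sites for the SETD2 knockout minus DNMT3B1. The cause of these changes was not tested. Of ratios without a call in either setting, first over second in the SETD2 knockout lay on the other side of 1 at 0.9999 (minimum 10), 0.991 (no maximum), 0.999 (mean of site fractions), 0.991 (without the 3 autosomes), 0.980 (isolated pairs) and 0.974 (density 5 to 9), that of DNMT3A2 at 0.993 (density 20 to 39), and the 3 bp log2 ratio of DNMT3B1 minus DNMT3A2 at -0.051 (equal reads). No paired analysis was possible because each line is 1 library.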
